A study of Mus musculus with 32 samples.

Results

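Macrophages are the most abundant immune cells of the testis, and 30 genes that mark macrophages and related myeloid cells are described here in ribosome immunoprecipitates (IPs) from Leydig and Sertoli cells. The genes were chosen by name, and each was read from the probe set that names it alone on the Affymetrix Mouse Gene 1.0 ST array. All 30 had exactly 1 such probe set, of 19920 genes that had at least 1 and of 35556 probe sets in all. A further 3 probe sets name Itgam together with Rpl35 and were left out. In RiboTag mice, Cre recombinase switches on a ribosomal protein that carries an HA tag, so that polysomes of the cells that express Cre can be pulled out of a whole-testis homogenate with an anti-HA antibody. The RNA in the IP is then compared with the RNA of the homogenate, called the input.

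The series held 32 arrays in 12 groups, 12 arrays from Cyp17iCre: RiboTag mice, in which Leydig cells carry the tag, and 20 from AMH-Cre: RiboTag mice, in which Sertoli cells carry it. In the Cyp17iCre line there were 3 IPs and 3 inputs from mice given saline, 2 IPs after the GnRH antagonist acyline, and 2 IPs at each of 2 times after LH (1 h and 4 h), with acyline given for 4 days beforehand. In the AMH-Cre line there were 5 IPs and 5 inputs from mice given saline, 2 IPs after acyline, 2 IPs at each of the same times after FSH in acyline-treated mice, 2 IPs after the GnRH antagonist cetrorelix, and 2 IPs after cetrorelix with testosterone. The methods call the mice of the Sertoli hormone experiments adult, and an exact age was not given in the sources used here. Every animal carried the RiboTag allele and a Cre transgene, and no IP from mice without Cre was analysed here. In the Cyp17iCre line the HA tag was also seen in scattered cells inside the tubules, according to the study's description of the line. The study took these to be Sertoli cells from the mRNA enrichment, so some RNA in the Leydig IPs may come from Sertoli cells. Values are log2 signals after RMA, the background correction and normalization that the authors used. A difference of 1 is a 2-fold change, and a signal of 5.64 is the linear value of 50 that a probe set had to pass in at least 1 array to be tested. The arrays were alike in scale, with medians between 6.36 and 6.50.

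The labelled cell types were borne out by their markers. In the Leydig IPs, 6 of 6 measured Leydig markers were enriched over input, with a median log2 difference of 3.08, and 1 of 9 Sertoli markers, Trf, was enriched. Of the Sertoli markers, 9 of 9 were enriched in the Sertoli IPs, with a median log2 difference of 2.44, and 6 of 6 Leydig markers were depleted. Germ cell markers were lower too. Depletion was called for 6 of 8 spermatocyte and 7 of 8 spermatid markers in the Leydig IPs, and for 7 of 8 spermatocyte and 5 of 8 spermatid markers in the Sertoli IPs.

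Testicular macrophages lie in the interstitium beside the Leydig cells and on the surface of the seminiferous tubules, while the inside of the tubule normally holds none. They grow under colony stimulating factor signaling through the receptor Csf1r, take up debris through scavenger and lectin receptors, digest it in lysosomes, secrete complement C1q, bind antibody through Fc receptors and show peptides on MHC class II. Neither Cre line targets macrophages, and the comparison of IP with input asks which of their transcripts are nonetheless held on the ribosomes of the tagged cells.

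Macrophage genes were more often depleted than enriched in both IPs, and 3 of the 30 were enriched in an IP. Of 26 members tested in the Leydig IPs, 13 were lower than in the input and 1 was higher, against 10.7% and 11.0% of all 24705 probe sets tested. Of 26 tested in the Sertoli IPs, 10 were lower and 3 were higher, against 11.7% and 12.4% of all 24797 probe sets. Of the members called lower, Cd53 in the Leydig line and Laptm5 in the Sertoli line passed 5.64 in the inputs alone. The median log2 difference of the members was −0.87 in the Leydig IPs and −0.72 in the Sertoli IPs, and over all probe sets it was −0.03 in both. In bulk RNA, fewer cells of a type and less RNA per cell cannot be told apart, and the ratios here compare shares of equal amounts of RNA. A call needed a Benjamini-Hochberg adjusted p under 0.05 in limma and a change of at least 2-fold.

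The calls in the 2 lines overlapped. Of 25 members tested in both, 10 were depleted in both IPs (8.86% of the 23978 probe sets tested in both), 3 in the Leydig IPs alone and none in the Sertoli IPs alone. Mpeg1 was the 1 member enriched in both (4.89% of those probe sets), and Mrc1 and Fcer1g were enriched in the Sertoli IPs and not called in the Leydig IPs. The remaining 9 were called in neither. Counted by arrays, the saline IPs lay wholly below the inputs for 19 members and wholly above them for 2 in the Leydig line, where 36.0% and 30.9% of all probe sets did so. In the Sertoli line they lay wholly below for 17 members and wholly above for 3, where 31.9% and 27.2% of all probe sets did. The groups overlapped for 5 tested members in the Leydig line and for 6 in the Sertoli line. The filter at 5.64 bears on these counts. Cd14, above its inputs in the Leydig line, passed it through the IPs alone. Among those below in both lines, Cd53, Ptprc and Cd163 passed it through the inputs alone.

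**Figure D1:**
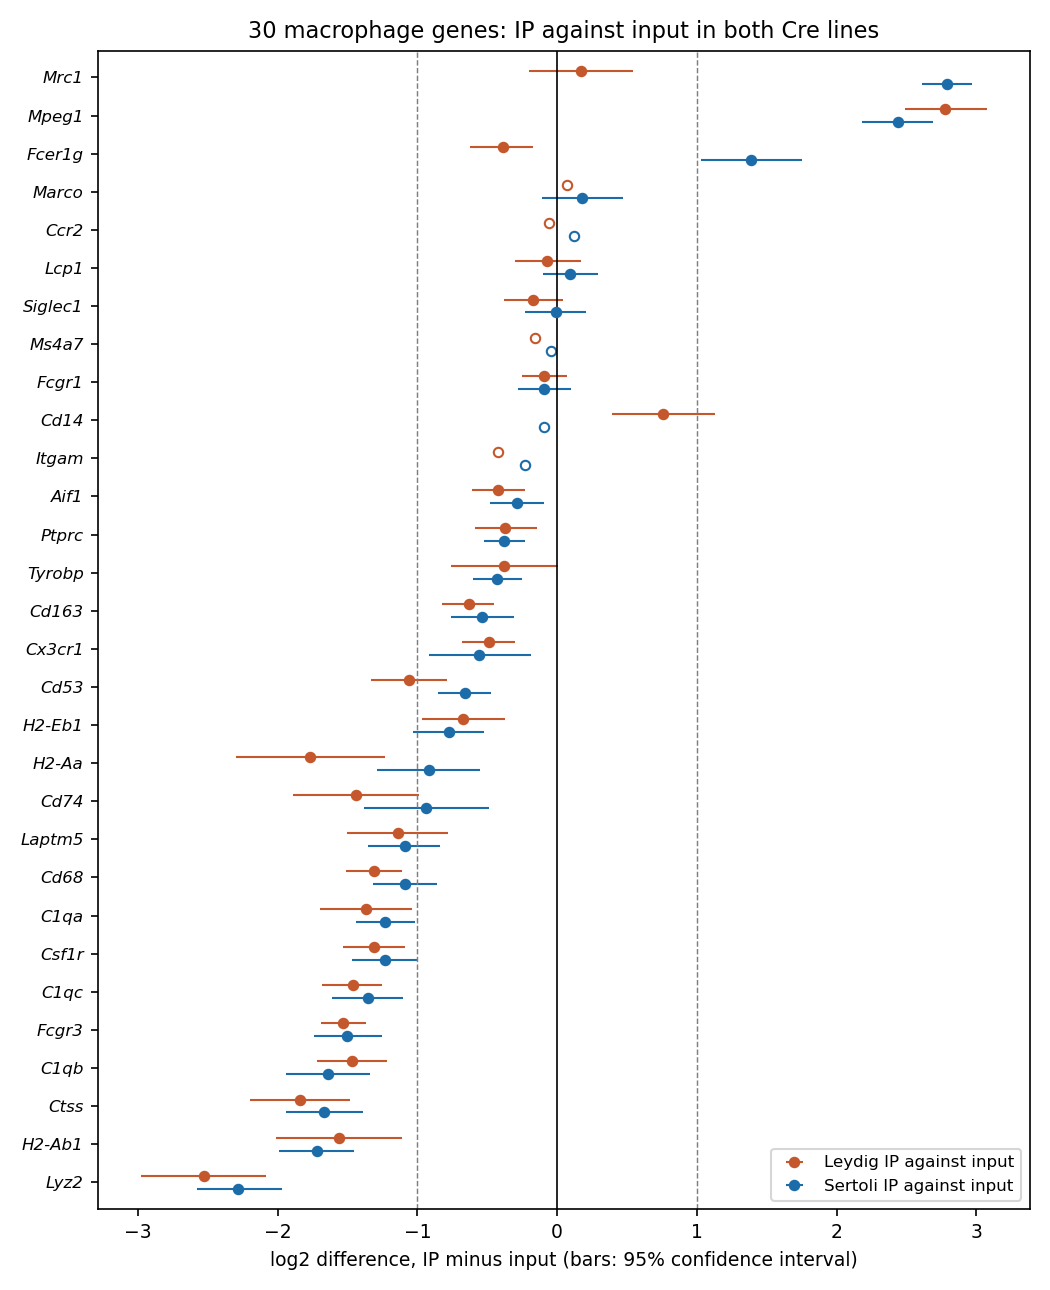
Log2 difference between IP and input for the 30 macrophage genes (rows, ordered by the Sertoli difference), in saline arrays of the Cyp17iCre line (Leydig, orange) and the AMH-Cre line (Sertoli, blue), with 95% confidence intervals from limma as bars, open symbols for genes that were not tested and dashed lines at a 2-fold change. Most genes lie left of 0 in both lines, Mpeg1 lies right of the dashed line in both, and Mrc1 and Fcer1g lie there in the Sertoli line alone.

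The start regions of the genes enriched in an IP and of 2 genes depleted in both IPs are shown as examples. Many members had neither pattern, with 9 of the 25 tested in both lines called in neither. Each window runs from 250 bases before the start of the gene to 50 bases after it, in the direction of transcription, as RefSeq places it on GRCm38.p6. Capitals mark a match to GAGGAA, a core that the macrophage factor PU.1 binds, or to AACAAT, a core that Sox factors such as the Sertoli factor Sox9 bind, each searched on both strands (TTCCTC and ATTGTT on the other). Mrc1 is at chr2:14229164-14229463 on the plus strand, Mpeg1 at chr19:12460520-12460819 on the plus strand, Fcer1g at chr1:171234300-171234599 on the minus strand, Lyz2 at chr10:117282223-117282522 on the minus strand and C1qb at chr4:136886151-136886450 on the minus strand.
Mrc1: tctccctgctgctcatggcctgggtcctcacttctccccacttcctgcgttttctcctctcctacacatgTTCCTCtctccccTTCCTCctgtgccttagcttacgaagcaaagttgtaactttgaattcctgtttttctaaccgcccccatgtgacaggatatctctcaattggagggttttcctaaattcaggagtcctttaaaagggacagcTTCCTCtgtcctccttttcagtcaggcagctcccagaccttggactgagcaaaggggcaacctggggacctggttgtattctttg
Mpeg1: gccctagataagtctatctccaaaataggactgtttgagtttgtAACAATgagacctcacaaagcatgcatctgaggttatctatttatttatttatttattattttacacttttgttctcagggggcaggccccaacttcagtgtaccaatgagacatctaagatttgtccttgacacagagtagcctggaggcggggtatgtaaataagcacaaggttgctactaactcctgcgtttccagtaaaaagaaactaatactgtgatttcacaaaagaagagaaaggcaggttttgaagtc
Fcer1g: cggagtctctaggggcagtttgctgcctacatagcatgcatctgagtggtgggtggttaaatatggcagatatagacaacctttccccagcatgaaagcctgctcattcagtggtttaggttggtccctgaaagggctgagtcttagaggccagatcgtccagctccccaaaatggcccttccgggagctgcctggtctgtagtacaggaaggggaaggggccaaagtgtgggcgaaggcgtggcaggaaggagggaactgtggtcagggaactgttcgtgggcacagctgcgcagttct
Lyz2: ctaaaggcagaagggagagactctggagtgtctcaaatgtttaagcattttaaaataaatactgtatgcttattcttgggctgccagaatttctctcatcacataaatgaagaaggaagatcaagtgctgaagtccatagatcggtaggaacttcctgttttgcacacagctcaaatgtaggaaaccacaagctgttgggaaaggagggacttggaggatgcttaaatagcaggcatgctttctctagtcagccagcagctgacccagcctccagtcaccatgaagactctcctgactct
C1qb: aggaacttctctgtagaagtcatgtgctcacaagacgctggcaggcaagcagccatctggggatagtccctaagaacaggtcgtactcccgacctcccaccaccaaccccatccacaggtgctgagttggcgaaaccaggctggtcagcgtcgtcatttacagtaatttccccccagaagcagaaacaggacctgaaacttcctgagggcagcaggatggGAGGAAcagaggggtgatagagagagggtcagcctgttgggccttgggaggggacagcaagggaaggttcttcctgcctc

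The Mrc1 window held 3 matches to GAGGAA, all on the opposite strand, 180, 167 and 35 bases before the start, and no match to AACAAT. The Mpeg1 window held 1 match to AACAAT, 206 bases before the start, and none to GAGGAA. In C1qb there was 1 match to GAGGAA, 30 bases before the start, and the Fcer1g and Lyz2 windows held none of either. Windows were at hand for 23 of the 30 members. GAGGAA was found in 14 of the 23 (60.9%), against 28.3% of all 32851 windows of the same length, and AACAAT in 5 of the 23 (21.7%), against 10.7%. AAGGTCA, a site for the Leydig and Sertoli factor Nr5a1, was searched likewise with TGACCTT and was found in 1 of the 23, H2-Eb1 (4.35%), against 4.72% of all windows. A member counted as matched if any of its windows held the motif, while the shares of all windows count each window by itself. The shares are therefore not like for like, because 4 members, Fcgr3, Lcp1, Ms4a7 and Ptprc, had more than 1 window. Fcgr3, Ms4a7 and Ptprc were among the members with a match to GAGGAA and to AACAAT. A match of letters is a description of the window and not a binding site.

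Mrc1, the macrophage mannose receptor (CD206) that takes up glycoproteins with mannose ends, was the member most enriched in the Sertoli IPs. The 3 saline Leydig IPs measured 8.63, 8.66 and 9.24, against 8.66, 8.69 and 8.67 in the Cyp17iCre inputs. The 5 saline Sertoli IPs measured 11.43, 11.62, 11.56, 11.26 and 11.39, against 8.68, 8.53, 8.58, 8.67 and 8.85 in the AMH-Cre inputs. All 5 Sertoli IPs thus lay above every other saline array, the inputs of the 2 lines were at the same level, and the Leydig IPs overlapped their inputs. The Leydig difference was 0.17 ± 0.159 on the log2 scale (SE, adjusted p = 0.385 in limma), with a 95% interval of −0.20 to 0.54. The Sertoli difference was 2.79 ± 0.0833, a 6.92-fold enrichment (adjusted p = 1.55e-10). The difference between the 2 enrichments, Leydig minus Sertoli, was −2.62 ± 0.174 (adjusted p = 4.89e-09), a 6.14-fold lower enrichment in the Leydig IPs.

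Of the 6 nearest protein-coding genes, Tmem236 and Slc39a12, which flank Mrc1, were not tested. The other 4, Hacd1, Stam, Cacnb2 and Nsun6, had log2 differences of −0.96, 0.27, −0.10 and −0.55 in the Leydig IPs and of −0.86, −0.44, 0.15 and −0.36 in the Sertoli IPs, and none was called. Of the mannose receptor family, 4 of 4 members were tested. In the Leydig IPs none was called. Mrc1 and Pla2r1, the M-type phospholipase A2 receptor, were enriched in the Sertoli IPs. The log2 difference of Pla2r1 was 0.36 ± 0.0904 in the Leydig IPs and 1.96 ± 0.108 in the Sertoli IPs (adjusted p = 0.00921 and 8.71e-09 in limma). The genes whose log2 signals ran most like those of Mrc1 over the 32 arrays were Vcl (Pearson r = 0.998), Tmem255a, Btnl10 and Slc41a2 (each 0.997) and Mfap3 (0.996). Their log2 differences were between 0.01 and 0.25 in the Leydig IPs and between 1.92 and 2.71 in the Sertoli IPs. The arrays share the split into IPs and inputs of 2 lines, so these correlations describe that split.

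Mpeg1, which encodes perforin-2, a pore-forming protein that macrophages use against engulfed bacteria, was the only member enriched in both IPs. It measured 9.86, 10.25 and 10.15 in the Leydig IPs, against 7.20, 7.22 and 7.49 in the Cyp17iCre inputs. Its Sertoli IPs measured 9.73, 9.51, 9.56, 9.42 and 9.38, against 7.20, 6.79, 6.95, 7.44 and 7.02 in the AMH-Cre inputs. Every IP of both lines lay above every input. The enrichment was 2.78 ± 0.126 on the log2 scale in the Leydig IPs (SE, 6.89-fold, adjusted p = 8.96e-07 in limma) and 2.44 ± 0.116 in the Sertoli IPs (5.42-fold, adjusted p = 2.66e-09). Between the 2 lines it differed by 0.35, with a 95% interval of −0.06 to 0.75 (adjusted p = 0.18). Dtx4, a neighbouring gene, was enriched too, by 1.79 in the Leydig IPs and 2.14 in the Sertoli IPs on the log2 scale. The 5 genes most like Mpeg1 over the 32 arrays were Cpt1a and Tspan31 (each r = 0.991), Snd1 (0.990), and Atp6ap1 and Smarca1 (each 0.989), a search added after the values of Mpeg1 were seen.

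Fcer1g, the common gamma chain through which Fc receptors and other myeloid receptors signal, was enriched in the Sertoli IPs and not in the Leydig IPs. It measured 6.70, 6.39 and 6.52 in the Leydig IPs, against 6.88, 6.89 and 7.02 in the Cyp17iCre inputs. The Sertoli IPs measured 9.07, 8.65, 8.56, 8.35 and 8.01, against 7.30, 7.09, 7.05, 7.33 and 6.93 in the AMH-Cre inputs. The Leydig IPs all lay below their inputs, and the Sertoli IPs all lay above theirs with a wider spread than for Mrc1. The Leydig difference was −0.39 ± 0.0982 (adjusted p = 0.00864 in limma), short of the 2-fold change that a call required. The Sertoli difference was 1.39 ± 0.166, a 2.62-fold enrichment (adjusted p = 9.41e-06), and Leydig minus Sertoli came to −1.78 ± 0.241 (adjusted p = 1.58e-05), a 3.45-fold lower enrichment.

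Some genes next to Fcer1g on chromosome 1 were enriched in the Sertoli IPs as well. B4galt3, Apoa2 and Tomm40l had log2 differences of 0.13, −0.08 and 0.63 in the Leydig IPs and of 2.07, 1.58 and 1.48 in the Sertoli IPs. Whether the Fcer1g probe set reads RNA of a neighbour was not tested. The genes most like Fcer1g over the 32 arrays, also a search added after its values were seen, were Gramd3 (r = 0.979), Derl3 (0.976), Iffo1 (0.974), and Dmrt1 and Smim41 (each 0.973). Dmrt1 is a transcription factor that Sertoli cells need to keep their identity. As for Mrc1 and Mpeg1, these correlations describe the split of the arrays into IPs and inputs of the lines. Tyrobp, the adaptor DAP12 that pairs with a set of myeloid receptors much as Fcer1g does, did not follow it. Its log2 difference was −0.38 in the Leydig IPs, with an adjusted p of 0.08 in limma, and −0.43 in the Sertoli IPs, with an adjusted p of 0.000425.

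**Figure D2:**
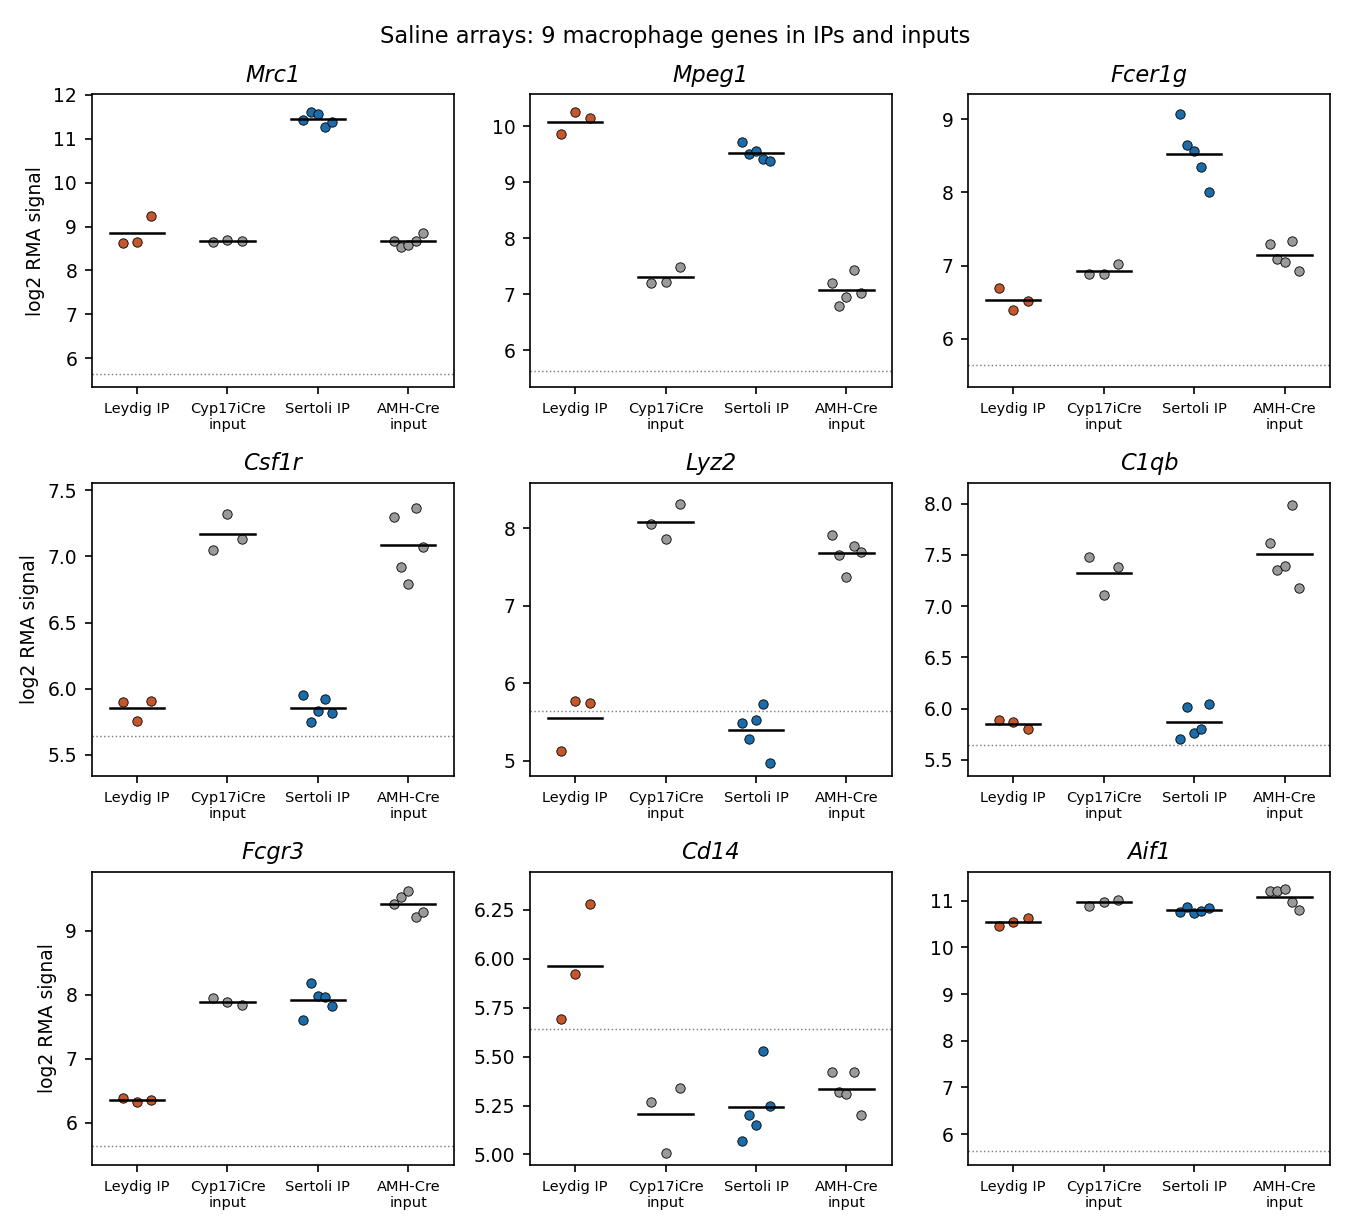
Log2 RMA signal of 9 macrophage genes in the saline arrays, with 1 point for each array, a bar at the group mean and a dotted line at the log2 signal of 5.64 that corresponds to a linear value of 50. Mpeg1 lies higher in both IPs than in both inputs, Mrc1 and Fcer1g lie higher in the Sertoli IPs alone, and Csf1r, Lyz2, C1qb and Fcgr3 lie lower in both IPs.

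The defining macrophage markers went the other way. Csf1r, the receptor for CSF1 and IL-34 on which macrophages depend, measured 5.90, 5.76 and 5.91 in the Leydig IPs, against 7.05, 7.32 and 7.13 in the Cyp17iCre inputs. In the Sertoli IPs it measured 5.95, 5.75, 5.83, 5.92 and 5.82, against 7.30, 6.92, 6.79, 7.37 and 7.07 in the AMH-Cre inputs. The IPs of both lines sat just over 5.64 and overlapped no input. Csf1r was depleted by 1.31 ± 0.0942 on the log2 scale in the Leydig IPs (SE, 2.48-fold, adjusted p = 8.55e-06 in limma) and 1.23 ± 0.107 in the Sertoli IPs (2.35-fold, adjusted p = 5.28e-07).

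Cd68, a lysosomal membrane glycoprotein of macrophages, had the same pattern. It measured 5.73, 5.62 and 5.57 in the Leydig IPs, against 6.84, 6.96 and 7.06 in the Cyp17iCre inputs, and 5.91, 5.76, 5.84, 5.54 and 5.88 in the Sertoli IPs, against 7.16, 6.71, 6.96, 6.90 and 6.66 in the AMH-Cre inputs. No IP reached an input. The depletion was 2.48-fold in the Leydig IPs (log2 −1.31 ± 0.0864, adjusted p = 5.47e-06 in limma) and 2.13-fold in the Sertoli IPs (log2 −1.09 ± 0.104, adjusted p = 1.21e-06).

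Cd163 and Cx3cr1 moved less. Cd163, the scavenger receptor for hemoglobin bound to haptoglobin, measured 5.14, 5.00 and 5.01 in the Leydig IPs, against 5.64, 5.63 and 5.78 in the Cyp17iCre inputs, and 4.99, 4.92, 4.75, 5.16 and 5.09 in the Sertoli IPs, against 5.81, 5.32, 5.48, 5.57 and 5.42 in the AMH-Cre inputs. Cx3cr1, the fractalkine receptor, measured 6.36, 6.35 and 6.31 in the Leydig IPs, against 6.88, 6.70 and 6.91 in the Cyp17iCre inputs, and 6.44, 6.11, 6.28, 6.61 and 6.76 in the Sertoli IPs, against 6.49, 7.01, 7.16, 6.90 and 7.42 in the AMH-Cre inputs. Cd163 was near the limit of 5.64 even in the inputs, and for Cx3cr1 the Sertoli IPs overlapped their inputs. The log2 differences of Cd163 were −0.63 ± 0.0801 in the Leydig IPs and −0.54 ± 0.102 in the Sertoli IPs, and those of Cx3cr1 were −0.49 ± 0.0814 in the Leydig IPs and −0.56 ± 0.167 in the Sertoli IPs. All 4 had an adjusted p under 0.05 in limma and were under a 2-fold change.

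Several leukocyte genes were too dim to be measured. Ccr2, the receptor that recruits monocytes, lay between 3.15 and 3.65 in all 32 arrays, Ms4a7 between 3.98 and 4.51, and Itgam, the CD11b integrin chain, between 4.73 and 5.44. No array passed 5.64 for any of them, so they were not tested in either line. Ptprc, the leukocyte antigen CD45, passed it in 0 of 9 Cyp17iCre IPs, in 0 of 15 AMH-Cre IPs, in 2 of 3 Cyp17iCre inputs and in 2 of 5 AMH-Cre inputs. Its log2 difference was −0.37 in the Leydig IPs and −0.38 in the Sertoli IPs. Marco, a scavenger receptor for bacteria, passed 5.64 in 1 of 9 Cyp17iCre IPs and 1 of 15 AMH-Cre IPs and in no input.

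Lyz2, the lysozyme of macrophages and neutrophils, was the member most depleted in both IPs. It measured 5.13, 5.77 and 5.75 in the Leydig IPs, against 8.06, 7.86 and 8.32 in the Cyp17iCre inputs. The Sertoli IPs measured 5.49, 5.28, 5.53, 5.73 and 4.97, against 7.91, 7.66, 7.37, 7.77 and 7.69 in the AMH-Cre inputs. The IPs scattered around 5.64 and lay far below every input. Lyz2 was lower by 5.78-fold in the Leydig IPs (log2 −2.53 ± 0.194, adjusted p = 1.21e-05 in limma) and by 4.85-fold in the Sertoli IPs (log2 −2.28 ± 0.139, adjusted p = 2.08e-08). Lyz1 is a near-identical gene, and whether the probe set tells the 2 apart was not tested.

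Ctss, the cathepsin that trims antigens in macrophages and dendritic cells, fell beside Lyz2. It measured 5.81, 6.05 and 6.05 in the Leydig IPs, against 7.74, 7.54 and 8.13 in the Cyp17iCre inputs, and 5.84, 5.74, 5.82, 5.85 and 5.95 in the Sertoli IPs, against 7.79, 7.40, 7.72, 7.61 and 7.03 in the AMH-Cre inputs. The groups did not overlap in either line. The depletion was 3.58-fold in the Leydig IPs (log2 −1.84 ± 0.153, adjusted p = 1.91e-05 in limma) and 3.18-fold in the Sertoli IPs (log2 −1.67 ± 0.125, adjusted p = 1.39e-07).

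Laptm5 and Cd53 encode membrane proteins of leukocytes, the first in lysosomes and the second a tetraspanin. Laptm5 measured 5.44, 5.89 and 5.40 in the Leydig IPs, against 6.72, 6.51 and 6.91 in the Cyp17iCre inputs, and 5.36, 5.35, 5.34, 5.61 and 5.60 in the Sertoli IPs, against 6.62, 6.18, 6.60, 6.86 and 6.47 in the AMH-Cre inputs. Cd53 measured 5.04, 5.43 and 5.21 in the Leydig IPs, against 6.15, 6.30 and 6.41 in the Cyp17iCre inputs, and 5.47, 5.13, 5.20, 5.55 and 5.37 in the Sertoli IPs, against 6.01, 5.97, 5.99, 6.13 and 5.92 in the AMH-Cre inputs. Neither gene's groups overlapped, and the Cd53 IPs all lay under 5.64, as did the Sertoli IPs of Laptm5. Cd53 in both lines and Laptm5 in the Sertoli line therefore entered the fit through the inputs alone. The filter thus favoured the direction of these differences, and their folds compare with IPs near the low end of the scale. Laptm5 was depleted 2.20-fold in the Leydig IPs (adjusted p = 0.000332 in limma) and 2.13-fold in the Sertoli IPs (adjusted p = 3.27e-06). Cd53 was called in the Leydig IPs alone, at 2.09-fold (log2 −1.06 ± 0.117, adjusted p = 9.8e-05), against 1.58-fold in the Sertoli IPs (log2 −0.66 ± 0.0849, adjusted p = 1.89e-05). Leydig minus Sertoli came to −0.40 (adjusted p = 0.0446), under 2-fold. Without Cyp17iCre input replicate 3 or IP replicate 1 the Leydig difference of Cd53 was −1.0 or −0.97 and was no longer called.

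The 3 chains of complement C1q, the recognition molecule of the classical pathway that macrophages secrete, fell together. C1qa measured 6.43, 5.91 and 6.12 in the Leydig IPs, against 7.68, 7.40 and 7.49 in the Cyp17iCre inputs, and 6.27, 6.24, 6.21, 6.20 and 6.07 in the Sertoli IPs, against 7.63, 7.47, 7.60, 7.30 and 7.12 in the AMH-Cre inputs. C1qb measured 5.89, 5.87 and 5.80 in the Leydig IPs, against 7.48, 7.11 and 7.38 in the Cyp17iCre inputs, and 5.70, 6.02, 5.76, 5.80 and 6.04 in the Sertoli IPs, against 7.62, 7.35, 7.39, 7.99 and 7.18 in the AMH-Cre inputs. C1qc measured 5.84, 5.73 and 5.78 in the Leydig IPs, against 7.36, 7.07 and 7.29 in the Cyp17iCre inputs, and 5.61, 5.42, 5.58, 5.87 and 5.75 in the Sertoli IPs, against 7.33, 6.89, 7.03, 7.02 and 6.70 in the AMH-Cre inputs. For all 3 chains every IP lay below every input. C1qa, C1qb and C1qc were lower by 2.58-, 2.77- and 2.75-fold in the Leydig IPs (adjusted p = 6.52e-05, 8.68e-06 and 4.5e-06 in limma) and by 2.34-, 3.12- and 2.55-fold in the Sertoli IPs (adjusted p = 1.96e-07, 4.01e-07 and 4.95e-07).

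Proteases that act with C1q were enriched in the Leydig IPs. Of 6 tested Fc and complement genes outside the 30, 3 were enriched in the Leydig IPs, where 11.0% of all probe sets were. The Sertoli IPs had 1 enriched and 1 depleted, where 12.4% and 11.7% of all probe sets were. C1s1, 1 of the proteases that C1q activates, had log2 differences of 3.06 ± 0.182 in the Leydig IPs (8.34-fold, adjusted p = 3.25e-06 in limma) and −1.47 ± 0.153 in the Sertoli IPs (adjusted p = 2.71e-06). C1ra, its partner protease, was enriched by 2.79 ± 0.229 in the Leydig IPs (adjusted p = 1.79e-05), against −0.55 ± 0.16 in the Sertoli IPs. Cr1l, the rodent regulator Crry that protects cells from complement, was enriched in both, by 2.65 ± 0.0794 in the Leydig IPs and 1.44 ± 0.143 in the Sertoli IPs.

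Among the Fc receptors that bind IgG, Fcgr3 was depleted and Fcgr1 was not. Fcgr3 measured 6.38, 6.32 and 6.36 in the Leydig IPs, against 7.94, 7.88 and 7.83 in the Cyp17iCre inputs, and 7.60, 8.18, 7.98, 7.96 and 7.82 in the Sertoli IPs, against 9.41, 9.52, 9.62, 9.21 and 9.29 in the AMH-Cre inputs. The IPs lay below the inputs in each line, and the inputs of the Cyp17iCre line overlapped the IPs of the AMH-Cre line. The depletion was 2.89-fold in the Leydig IPs (log2 −1.53 ± 0.0695, adjusted p = 9.22e-07 in limma) and 2.83-fold in the Sertoli IPs (log2 −1.50 ± 0.111, adjusted p = 1.23e-07), and Leydig minus Sertoli came to −0.03 (adjusted p = 0.911). Fcgr1, the high-affinity receptor, had a log2 difference of −0.09 in each IP, with adjusted p = 0.301 in the Leydig IPs and 0.386 in the Sertoli IPs, and lay between 5.48 and 6.03 over all arrays.

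The level of Fcgr3 thus separated the 2 lines as well as IPs from inputs. Between the inputs, Cyp17iCre minus AMH-Cre, Fcgr3 differed by −1.52 ± 0.111 on the log2 scale, 2.87-fold lower in the Cyp17iCre inputs (adjusted p = 6.34e-06 in limma). It was the only member of 27 tested that was called lower between the inputs at 1.5-fold, and none was called higher, against 0.897% and 1.22% of all probe sets. Siglec1 and Cd53 lay wholly higher in the Cyp17iCre inputs and Fcgr3 wholly lower, while 8.18% of all probe sets lay wholly higher and 11.7% wholly lower. The log2 differences of Siglec1 and Cd53 between the inputs were 0.27 and 0.28, with adjusted p of 0.108 and 0.0909. The median of the 27 was 0.08, against −0.01 over all probe sets. The 3 neighbours of Fcgr3 that were tested were not called between the inputs, with log2 differences of 0.22 for Fcgr2b, −0.24 for Cfap126 and −0.13 for Sdhc. Against input, Cfap126 was depleted like Fcgr3, with log2 differences of −2.29 in the Leydig IPs and −2.21 in the Sertoli IPs. Fcgr2b and Sdhc were called in neither IP. Whether the Fcgr3 probe set reads RNA of a neighbour was not tested.

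Of the 4 MHC class II members, which macrophages and dendritic cells use to show peptides to T cells, H2-Ab1 was depleted in both IPs, H2-Aa and Cd74 were called in the Leydig IPs alone and H2-Eb1 was not called. H2-Ab1, the beta chain of I-A, measured 6.29, 6.15 and 6.27 in the Leydig IPs, against 7.48, 7.62 and 8.29 in the Cyp17iCre inputs, and 6.38, 6.20, 6.21, 6.50 and 6.20 in the Sertoli IPs, against 7.85, 7.87, 8.14, 8.45 and 7.78 in the AMH-Cre inputs. H2-Aa, its alpha chain, measured 5.26, 5.45 and 5.73 in the Leydig IPs, against 6.94, 7.02 and 7.79 in the Cyp17iCre inputs, and 6.45, 5.83, 5.83, 6.0 and 6.05 in the Sertoli IPs, against 6.76, 6.70, 6.95, 7.57 and 6.79 in the AMH-Cre inputs. Cd74, the invariant chain, measured 5.43, 5.88 and 6.04 in the Leydig IPs, against 7.12, 6.99 and 7.55 in the Cyp17iCre inputs, and 5.85, 5.88, 6.32, 6.17 and 6.03 in the Sertoli IPs, against 6.56, 6.79, 6.90, 7.83 and 6.85 in the AMH-Cre inputs. No IP overlapped an input of its line for any of the 3, and 1 AMH-Cre input, replicate 4, was the highest of its group for all of them.

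In the Leydig IPs all 3 passed the test, H2-Ab1 at 2.95-fold lower (adjusted p = 0.000197 in limma), H2-Aa at 3.41-fold (adjusted p = 0.000248) and Cd74 at 2.71-fold (adjusted p = 0.000299). H2-Ab1 also passed in the Sertoli IPs, at 3.29-fold lower (adjusted p = 9.51e-08), while H2-Aa at 1.89-fold (adjusted p = 0.000396) and Cd74 at 1.91-fold (adjusted p = 0.0013) fell short of 2-fold. The lines differed by −0.85 for H2-Aa, Leydig minus Sertoli (adjusted p = 0.0415), and by −0.50 for Cd74 (adjusted p = 0.267), and neither difference reached 2-fold. H2-Eb1, the beta chain of I-E, had log2 differences of −0.67 ± 0.129 in the Leydig IPs and −0.77 ± 0.115 in the Sertoli IPs. Of 4 tested genes that process antigens for class II, the 1 called was Ifi30, a lysosomal thiol reductase. It was enriched by 1.89 ± 0.0845 in the Leydig IPs and depleted by 1.07 ± 0.0902 in the Sertoli IPs.

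Over the interaction of line and IP, 2 of 27 tested members, Mrc1 and Fcer1g, had a lower enrichment over input in the Leydig line than in the Sertoli line. A higher enrichment was called for 0, and the shares of 25524 probe sets were 5.98% lower and 5.48% higher. With so few genes, these counts lie near those shares. The median difference of the 27 was −0.11, against −0.03 over all probe sets.

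Cd14, the co-receptor through which macrophages sense lipopolysaccharide, passed 5.64 in the IPs of 1 line and in no other array. It measured 5.69, 5.92 and 6.28 in the saline Leydig IPs, against 5.27, 5.01 and 5.34 in the Cyp17iCre inputs. In the Sertoli IPs it measured 5.07, 5.20, 5.15, 5.53 and 5.25, against 5.42, 5.32, 5.31, 5.42 and 5.20 in the AMH-Cre inputs. All 3 Leydig IPs lay above 5.64 and above every other saline array. Over all treatments it passed 5.64 in 9 of 9 Cyp17iCre IPs, with a lowest, median and highest signal of 5.69, 6.06 and 6.32, in 0 of 15 AMH-Cre IPs, in 0 of 3 Cyp17iCre inputs and in 0 of 5 AMH-Cre inputs. Cd14 entered the Leydig fit through the IPs alone, was not called there and was not tested in the Sertoli line, so no fold is given against inputs that lay under 5.64. Ly96, the MD-2 partner of the same lipopolysaccharide receptor, averaged 7.09 in the Leydig IPs, against 5.07 in the Cyp17iCre inputs, and 6.25 in the Sertoli IPs, against 4.83 in the AMH-Cre inputs. Tlr3, a receptor for double-stranded RNA, averaged 6.86 in the Leydig IPs, against 5.28 in the Cyp17iCre inputs, and 5.77 in the Sertoli IPs, against 5.22 in the AMH-Cre inputs. The input means of both genes were under 5.64 as well.

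The other members changed little. Aif1, the actin-binding protein Iba1 used to stain macrophages, lay between 10.40 and 10.63 in the Cyp17iCre IPs, against 10.89 to 11.02 in the Cyp17iCre inputs, and between 10.66 and 11.07 in the AMH-Cre IPs, against 10.80 to 11.24 in the AMH-Cre inputs. Its log2 differences were −0.42 ± 0.0803 in the saline Leydig IPs and −0.29 ± 0.0877 in the saline Sertoli IPs, both under a 2-fold change. Siglec1, a sialic acid receptor of resident macrophages, differed by −0.17 in the Leydig IPs and −0.01 in the Sertoli IPs. Lcp1, the leukocyte plastin that bundles actin, differed by −0.07 in the Leydig IPs and 0.09 in the Sertoli IPs. None of the 4 adjusted p-values of Siglec1 and Lcp1 was under 0.05, the lowest being 0.132 for Siglec1 in the Leydig IPs.

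The hormone treatments moved no member past the test. Over 8 comparisons and 187 tests of members, limma called 0 at an adjusted p under 0.05 and 1.5-fold, 15 had an unadjusted p under 0.05, and the log2 differences ran between −0.60 and 0.50. Of all probe sets, either way, 0.143% were called in the Leydig IPs for acyline against saline, 0.00818% for LH at 1 h and 0.613% for LH at 4 h against acyline. The shares in the Sertoli IPs were 0.00406% for acyline against saline, 0.0122% for cetrorelix against saline, 0.00406% for testosterone against cetrorelix, and 0.00% for FSH at 1 h and 0.0203% for FSH at 4 h against acyline. With 2 arrays in each treated group, the spread was estimated from all IPs of the line.

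In the Leydig IPs Mrc1 measured 8.35 and 8.19 after acyline, against 8.63, 8.66 and 9.24 after saline. It then measured 8.55 and 8.43 at 1 h of LH and 8.34 and 8.26 at 4 h. The acyline arrays lay below the saline arrays without overlap, and 1 saline array was higher than the other 2. The difference was −0.57 ± 0.178 on the log2 scale (adjusted p = 0.224 in limma). Mpeg1 measured 9.61 and 9.60 after acyline, against 9.86, 10.25 and 10.15 after saline, a difference of −0.48 ± 0.156 (adjusted p = 0.244). At 1 h of LH it measured 9.90 and 9.65, and at 4 h 9.87 and 9.48. Lyz2 had the lowest log2 difference of any member, −0.60 for LH at 1 h against acyline (adjusted p = 0.768).

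The 3 members enriched in the Sertoli IPs lay near their saline levels under every treatment. Mrc1 group means lay between 11.33 and 11.45 in all AMH-Cre IP groups. Mpeg1 measured 9.62 and 9.65 after acyline, 9.59 and 9.55 at 1 h and 9.67 and 9.60 at 4 h of FSH, 9.83 and 9.33 after cetrorelix and 9.22 and 9.69 with testosterone. Fcer1g measured 8.17 and 8.23 after acyline, 8.39 and 8.08 at 1 h and 8.51 and 8.40 at 4 h of FSH, 8.45 and 8.86 after cetrorelix and 8.57 and 8.44 with testosterone. Every one of these arrays lay above the AMH-Cre inputs of its gene.

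**Figure D3:**
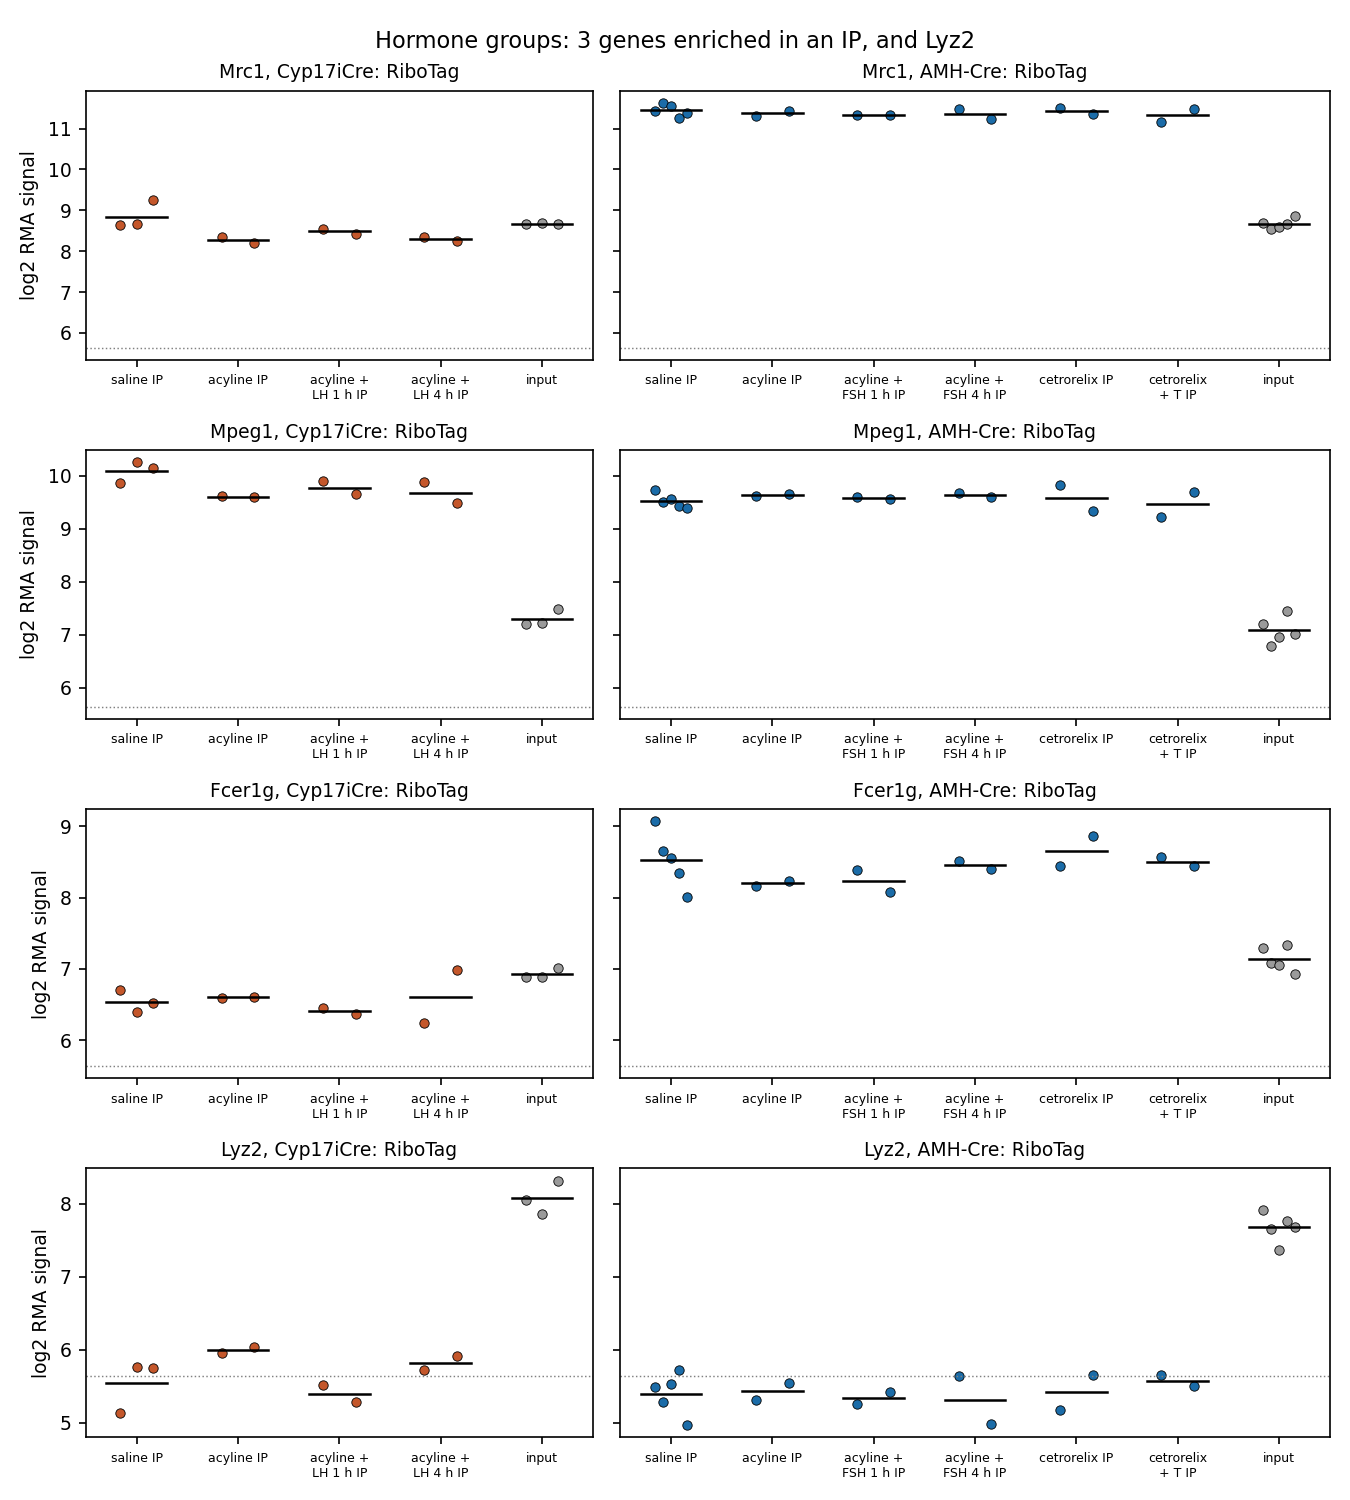
Log2 RMA signal of Mrc1, Mpeg1, Fcer1g and Lyz2 in every group of the Cyp17iCre line (left) and the AMH-Cre line (right), with 1 point for each array, a bar at the group mean and a dotted line at 5.64. The IP groups of a line lie at similar levels across treatments, with no macrophage gene called in any hormone comparison.

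Further macrophage genes outside the 30 were mostly below their inputs, by less than 2-fold. Of 10 tested in the Leydig IPs, 9 had a log2 difference under 0, with 1 called higher, 1 called lower and a median of −0.63. Of 11 tested in the Sertoli IPs, 10 were under 0, with 0 called higher, 1 called lower and a median of −0.53. The gene called higher was Irf8, an interferon regulatory factor that directs monocyte and dendritic cell development, which averaged 9.74 in the Leydig IPs, against 6.88 in the Cyp17iCre inputs (log2 2.86 ± 0.187, 7.24-fold, adjusted p = 5.33e-06 in limma). Its difference was −0.21 ± 0.118 in the Sertoli IPs, and Leydig minus Sertoli came to 3.07 (adjusted p = 1.67e-08). Ly86, an MD-1 protein of macrophages and B cells, was depleted by 1.26 ± 0.107 in the Leydig IPs, and Cybb, the catalytic chain of the phagocyte oxidase, was depleted by 1.04 ± 0.119 in the Sertoli IPs.

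Ligands that feed or attract macrophages were tested as a further list. In the Leydig IPs 4 of 9 tested ligands were enriched and 1 was depleted, and in the Sertoli IPs 2 of 9 were enriched, where 11.0% and 12.4% of all probe sets were. Csf1, the ligand of Csf1r, averaged 7.83 in the Leydig IPs, against 5.83 in the Cyp17iCre inputs (log2 1.99 ± 0.197, 3.99-fold, adjusted p = 5.1e-05 in limma), and had a difference of −0.49 ± 0.108 in the Sertoli IPs. Leydig minus Sertoli came to 2.48 for Csf1 (adjusted p = 1.62e-07). Cxcl12, a chemokine that binds CXCR4, and Cx3cl1, the ligand of Cx3cr1, were enriched by 1.87 ± 0.097 and 1.04 ± 0.0731 in the Leydig IPs. Tgfb1, an anti-inflammatory cytokine, had a difference of 0.24 ± 0.106 in the Leydig IPs and 2.12 ± 0.0678 in the Sertoli IPs, where it was called, and Mif, the macrophage migration inhibitory factor, was enriched in both, by 1.27 in the Leydig IPs and 1.32 in the Sertoli IPs. The ligand depleted in the Leydig IPs was Ccl8, which averaged 4.23, against 5.34 in the Cyp17iCre inputs, both under 5.64.

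Engulfing and digesting cells are functions that macrophages share with Sertoli cells. Of 17 tested engulfment and scavenger genes, 9 were enriched in the Leydig IPs (11.0% of all probe sets were), with a median log2 difference of 1.17, while the Sertoli IPs had 11 enriched (12.4% of all probe sets were) and 1 depleted, with a median of 2.07. Mfge8, which bridges dying cells to integrins, had a log2 difference of 0.89 ± 0.0989 in the Leydig IPs and 2.66 ± 0.0582 in the Sertoli IPs. Tyro3, a receptor kinase for dying cells, had 0.05 ± 0.079 in the Leydig IPs and 2.50 ± 0.0787 in the Sertoli IPs. Cd36, a scavenger receptor for fatty acids and lipoproteins, went in opposite directions, at 3.51 ± 0.107 in the Leydig IPs (11.4-fold, adjusted p = 2.74e-07 in limma) and −2.17 ± 0.183 in the Sertoli IPs (adjusted p = 3.93e-07). Leydig minus Sertoli came to 5.69 for Cd36 (adjusted p = 1.07e-10). Of 10 lysosomal proteases, 8 were enriched in the Leydig IPs (11.0% of all probe sets were), with Ctsh at 3.67 ± 0.0775. In the Sertoli IPs 6 were enriched (12.4% of all probe sets were), with Lgmn at 2.39 ± 0.077. Ctss, the member of the 30 in that family, was depleted in both.

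Genes that act downstream of Fcer1g and other immune receptors were tested as a further list. Of 9 tested signaling genes of immune receptors, 1 was depleted in the Leydig IPs, where 10.7% of all probe sets were. The Sertoli IPs had 1 enriched and 2 depleted, where 12.4% and 11.7% of all probe sets were. With so few genes, these counts lie near the shares over all probe sets. Fyb, an adaptor of T cells and myeloid cells, had a difference of −0.08 ± 0.0847 in the Leydig IPs. It averaged 8.51 in the Sertoli IPs, against 6.61 in the AMH-Cre inputs (log2 1.90 ± 0.118, adjusted p = 2.4e-08 in limma). Leydig minus Sertoli came to −1.98 for Fyb (adjusted p = 1.12e-07). Inpp5d, the phosphatase SHIP1 of blood cells, was depleted by 1.44 ± 0.119 in the Leydig IPs and 1.39 ± 0.119 in the Sertoli IPs. Markers of other blood cells were mostly dim. Of the T and NK cell genes 4 of 10 measured were tested in each line and none was called, and likewise none of 2 tested B cell genes. Of 5 measured dendritic cell genes 3 passed the filter on dim signals, and 2 were called enriched in the Sertoli IPs, where 12.4% of all probe sets were. Flt3, a cytokine receptor of blood precursors, was enriched by 1.27 ± 0.075. Xcr1, a chemokine receptor, differed by 1.00 from an input mean of 4.92. That mean is under 5.64, so the fold of Xcr1 compares with inputs near the low end of the scale. Alas2, a heme synthesis enzyme and 1 of 3 listed red cell genes, was enriched by 2.01 ± 0.0661 in the Sertoli IPs, where 12.4% of all probe sets were. The mean of the 3 genes was 7.13 in the saline Sertoli IPs, against 6.46 in the AMH-Cre inputs. That rise is about as large as Alas2 alone would give, so it is not a rise of the red cell genes together. Over all 30 members, the mean signal per saline array was 6.04 to 6.13 in the Leydig IPs, against 6.67 to 6.88 in the Cyp17iCre inputs, and 6.23 to 6.33 in the Sertoli IPs, against 6.65 to 6.85 in the AMH-Cre inputs.

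**Figure D4:**
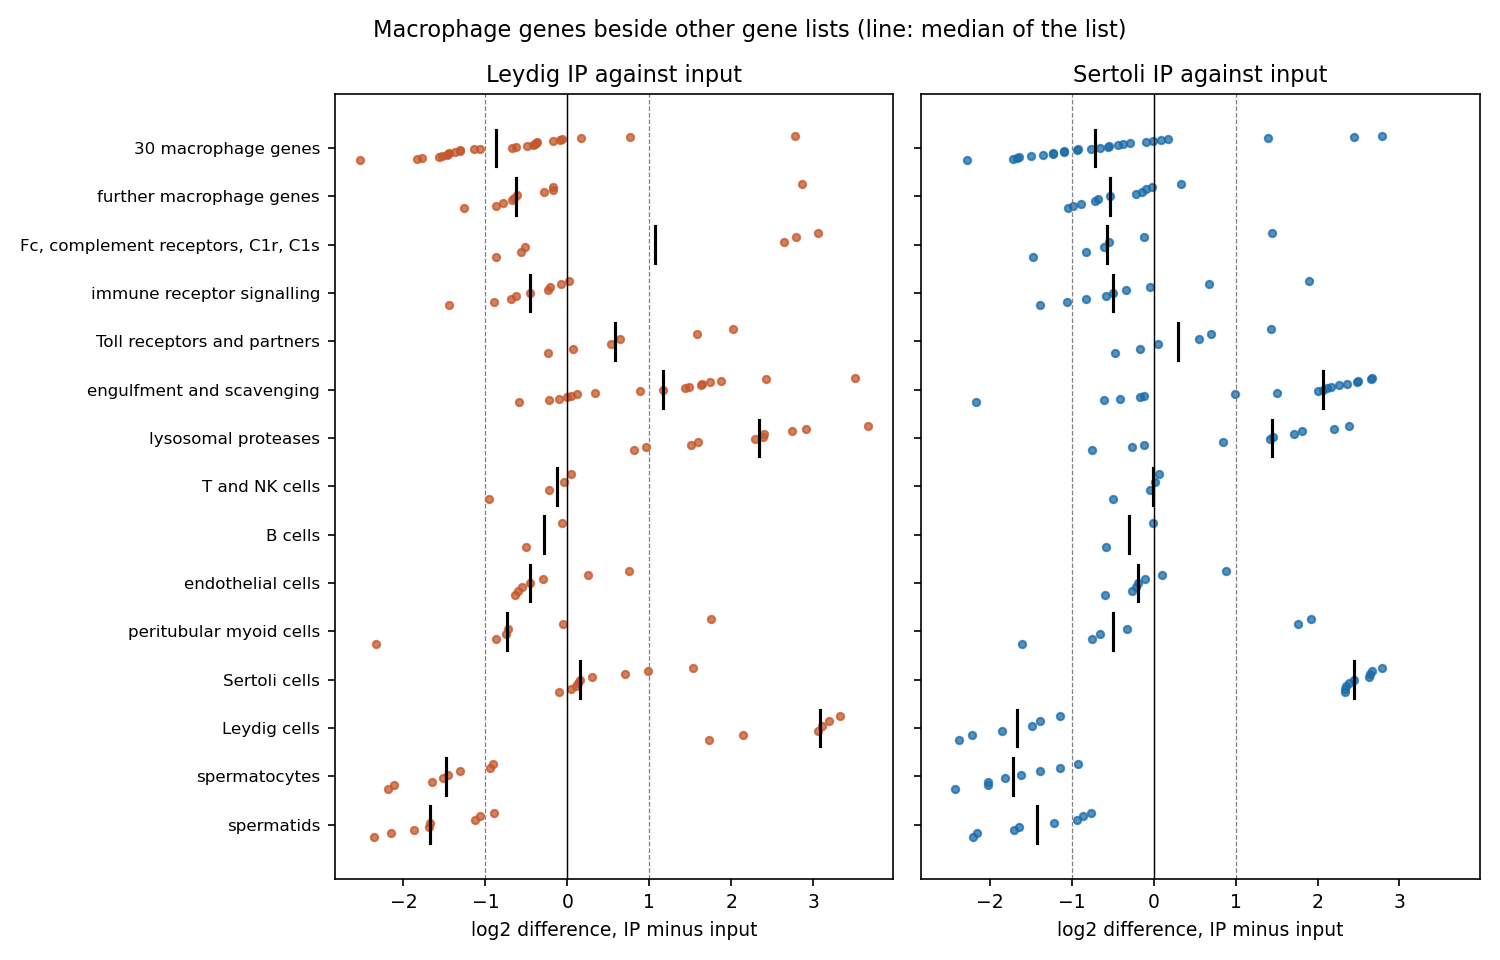
Log2 difference between IP and input for the tested genes of 15 lists (rows; 1 point for each gene, black line at the median of the list, dashed lines at a 2-fold change), in the Leydig IPs (left) and the Sertoli IPs (right). The 30 macrophage genes and the germ cell lists have medians below 0 in both lines, the lists of lysosomal proteases and of engulfment have medians above 1 in both, and each line's own cell markers lie to the right.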

How the data were processed

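The series measured RNA of mouse testis IPs and inputs on 32 one-colour arrays (methods as described by the study: equal amounts of RNA were labelled and hybridized). The authors deposited log2 signals per probe set after RMA, whose background correction and quantile normalization compress ratios of dim probes. The version of RMA was not given in the sources used here. No further scaling was applied. Probe sets were named from the platform annotation (21789 with 1 symbol, 1621 with several, 12146 unlisted), and 23 symbols were updated through RefSeq. Groups came from the labels. For the 4 cetrorelix arrays the source name reads input, but they were treated as IPs because title, sample type and antibody all give IP.

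Differences were fitted with limma 3.58.1 (R 4.3.3; lmFit, contrasts.fit, eBayes) over all probe sets with a linear signal over 50 in at least 1 array of the fit, with Benjamini-Hochberg adjustment over all of them. The threshold for a call was an adjusted p of 0.05 with a change of 2-fold (IP against input, interaction) or 1.5-fold (inputs, hormones), the folds of the study's methods, where an analysis of variance was used. The scripts were tested on simulated data. The 30 members, the gene lists and the tests were chosen with earlier results of these data known. Array values are given for each member called and for Csf1r, Cd68, Cd163 and Cx3cr1, and of other lists at most 4 called genes in each IP are named. Promoter windows came from RefSeq. Alternatives were no filter, median centring, quantile normalization, an ordinary contrast with and without adjustment, the replicate number as a block, only the 2 groups compared, all single-symbol probe sets, and each array left out. The study counts the saline arrays as mice (5 AMH-Cre, 3 Cyp17iCre) and the AMH-Cre hormone arrays as 2 animals a group. For the Cyp17iCre hormone arrays its methods do not state how many animals an array holds. The number of arrays limits the precision. Where all arrays of a group lie under 5.64, a fold compares RMA signals near the low end of the scale.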

Additional observations from a re-analysis of the deposited data

Results flagged for a closer look

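The enrichment of Mrc1 differed between the lines by −2.62 on the log2 scale, Leydig minus Sertoli, and that of Fcer1g by −1.78, both by the interaction term in limma. In a search of 60 groups of 5 arrays (each of the 30 members in the saline IPs and inputs of the AMH-Cre line) for an array that stands apart, 1 was found. Cd74 measured 7.83 in AMH-Cre input replicate 4, against 6.56 to 6.90 in the other 4 inputs. Chance alone marks about 1 in 20 groups in this way.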

How the results depend on the processing

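The 30 called results of members were set against 480 alternatives, of which 478 kept the call. For each result 1 of these, all single-symbol probe sets, was the main fit again, since each member had 1 such probe set. It could not change a call. The exceptions were Cd53 in the Leydig IPs without Cyp17iCre input replicate 3 (log2 −1.0) and without Cyp17iCre IP replicate 1 (−0.97). With 1 array left out at a time, 1 to 1 members were higher and 12 to 13 lower in the Leydig IPs, 3 to 3 higher and 10 to 11 lower in the Sertoli IPs, 0 to 0 higher and 2 to 3 lower for the interaction, 0 to 0 higher and 1 to 1 lower between the inputs, and 0 to 0 for each hormone comparison. Pairing by replicate number was not seen clearly. Deviations of same-numbered IPs and inputs correlated between 0.02 and 0.15 in the Cyp17iCre line and between −0.03 and 0.16 in the AMH-Cre line. In 2 of 3 and 2 of 5 cases an IP correlated best with the input of its own number. Weak correlations over so few arrays cannot show that the samples were unpaired, and the study compared IPs with their respective inputs. With the replicate block the counts of calls were 13 lower and 1 higher in the Leydig IPs, 10 and 3 in the Sertoli IPs, and 0 in every hormone comparison. The block changed no call in these comparisons or in the interaction. Because the blocks lie within a line, that fit compares single replicates between the lines. It therefore cannot check the difference of Fcgr3 between the inputs, though it is counted among the 480. Sertoli saline IPs 4 and 5, and the FSH 1 h arrays, were also left out, a choice made after seeing the data, and no call was lost. Signals near 5.64, those of Csf1r, Lyz2 and Cd163 in the IPs among them, limit how low a depleted gene can be read.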
